A study of Trichoderma reesei with 36 samples.

Results

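A set of 100 genes of *Trichoderma reesei* Rut-C30 stood lower on pure lactose (L100) than on pure glucose (G100) at both sampling times and lost less, or nothing, on feeds in which lactose was mixed into glucose. They were taken from the 9129 genes of the count files. The measure was the normalized read count in CPM, the count of a gene scaled to the size of its library, averaged over the libraries of a group. Of 7019 genes with a mean of 5 CPM or more on G100 at both times, 616 had a log2 ratio of L100 to G100 of -0.75 or lower at 24 h and at 48 h, computed with 0.5 CPM added to each mean. Each of these was scored by how far the lower of the mixtures, or 0 if both lay above glucose, exceeded lactose, at the time where this gap was smaller. The 100 highest scores form the set, which was thus chosen by the group means on L100 and on the mixtures relative to G100, and the other 516 lowered genes serve for comparison. These contrasts are given below as a description, and where calls on them are counted nothing is read from the counts. All 100 passed the filter on low counts of the tests that follow.

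*T. reesei* is a filamentous fungus that secretes cellulases and xylanases, the enzymes that degrade plant cell walls. Lactose is a soluble inducer of these enzymes, and pure glucose feeds growth without inducing them. Rut-C30 is a mutant selected for high cellulase production that carries a truncated CRE1, the regulator that shuts off the use of other sugars while glucose is present. Between the pure feeds, the genes described here move opposite to the cellulases, but on the mixtures not all of them do. The functions listed for them include, among others, the cell surface, uptake of nutrients, proteolysis, secondary metabolism and signalling. Functions were read from the list of 650 genes that the study called on these same libraries, so they are not independent of the levels. That list holds 71 of the 100 genes and names a function for 53 of them. The others are given by their ID alone. Lists drawn from it by keyword had no gene in the set for 16 tested cellulases, 19 transcription factors and 11 small secreted proteins.

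Cultures of this single strain first grew on glucose and were then divided into flasks that received a slow feed of G100, L100, 75% glucose with 25% lactose (G75-L25) or 90% glucose with 10% lactose (G90-L10). Mycelium was taken 24 h or 48 h after the feed began. Each sampling time is covered by 6 libraries for either pure feed, 4 for G75-L25 and 2 for G90-L10. The paper calls its repeats biological replicates. The labels do not say which libraries share a culture or a flask, across feeds or across times. The labels of the pure feeds begin with 2014 and those of the mixtures with 2015, and they do not say what this prefix stands for. Whatever it marks cannot be told apart from the mixing in any contrast of a mixture with a pure feed.

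Total counts ran from 9955798 to 49808747 per library. The cellobiohydrolase CBH1, the main cellulase, had 4199 CPM in library 2014_274, which is labelled L100 at 48 h, against 158600 to 205500 CPM in the other 5 libraries of that group and 4550 to 14750 CPM on G100 at 48 h. The rule for the genes leaves this library out, and so do the values below unless it is named, which makes n = 5 for L100 at 48 h. In libraries 2015-430 (G75-L25 at 24 h) and 2015-431 (G75-L25 at 48 h), CBH1 had 91480 and 106300 CPM, the highest values of their groups. The cellobiohydrolase CBH2, the endoglucanase EGL1 and the xylanase XYN1 were also highest there. The endoglucanase EGL2 was not, with 7886 CPM in 2015-430, the lowest of 7886 to 9658 CPM, and 8003 CPM in 2015-431, within 7953 to 9019 CPM. The xylanase XYN3, at 14.75 and 12.65 CPM, lay within the range of its groups.

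The 100 genes together took a median of 3.86% of all counts on G100 at 24 h (3.52% to 4.46%) and 0.739% on L100 (0.533% to 0.768%). The corresponding shares at 48 h were 3.84% (2.99% to 4.28%) and 0.381% (0.345% to 0.692%). These are shares of raw counts, without the factors that scale the CPM values. Genes with very high counts on L100 therefore lower them too, such as CBH1, at 98370 to 154000 CPM on L100 and 2501 to 5704 CPM on G100 at 24 h. No L100 library overlapped a G100 library at either time. A smaller share of hyphae that express a gene and less RNA per hypha cannot be told apart in such bulk samples. On G75-L25 the share was 1.33% to 2.43% at 24 h and 1.29% to 2.56% at 48 h, and on G90-L10 it was 2.26% and 2.65%, then 2.28% and 2.82%. The mixtures lay between the pure feeds without touching either. By the rule, the mean of each gene on L100 had to lie below G100 and below both mixtures, so nothing is read from that order. By the scaled values, the median gene held 30.7% of its G100 level on L100 at 24 h and 18.7% at 48 h. It held 64.4% and 60.1% on G75-L25, and 75.2% and 69.8% on G90-L10.

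**Figure D1:**
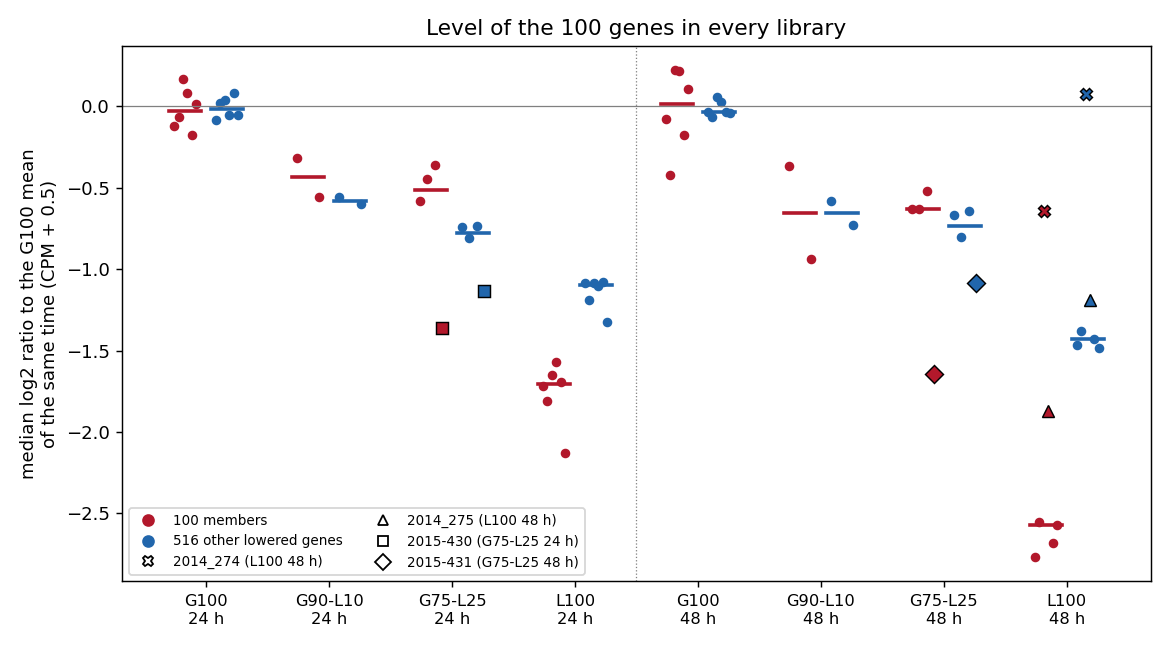
Median log2 ratio to the G100 mean of the same time (vertical axis, CPM + 0.5) in each of the 36 libraries (points), by feed and time (horizontal axis), for the 100 genes in red and the 516 other lowered genes in blue, with bars at group medians that leave out 2014_274 and larger symbols for 4 named libraries. The red points of L100 lie from -2.13 to -1.57 at 24 h, while 2014_274 lies at -0.64 at 48 h.

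Per library, the median log2 ratio of the 100 genes to the G100 mean was -1.76 ± 0.197 (SD, n = 6) on L100 at 24 h and -2.49 ± 0.355 (n = 5) at 48 h. The plot of medians by library shows a single high library among the latter, 2014_275 at -1.87, with the other 4 from -2.77 to -2.55. The 4 libraries of G75-L25 gave -0.58, -0.45, -0.36 and -1.36 at 24 h, then -0.63, -0.63, -0.52 and -1.64 at 48 h. The lowest value of each was 2015-430 and 2015-431, the libraries with the most CBH1, though not with the most EGL2 or XYN3. Without 2014_274, 2015-430 and 2015-431, the rule shared 85 of its 100 genes with the set used here, and with all 36 libraries it shared 71.

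In the model of all groups, 42 of the 100 genes were lower on L100 than on G100 at 24 h at the thresholds of the study's methods (adjusted p below 0.001 and absolute log2 fold change above 2), where 2.24% of all 8338 genes tested were, and 67 at 48 h, where 3.73% were. On G75-L25 the counts were 14 (0.911% of all genes) and 17 (1.3%), and on G90-L10 they were 1 (0.072%) and 1 (0.216%). Every L100 library lay below every G100 library for 94 genes at 24 h (25.1% of the 7019 expressed genes did) and for 95 at 48 h (24.7%). Against G75-L25 the groups were apart for 48 genes at 24 h (8.55%) and 57 at 48 h (11.5%). Nothing is read from these counts, since the rule used the same contrasts.

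The gap between lactose and the mixtures, not an absence of change on the mixtures, defines the set. Of the 100 genes, 32 held a log2 ratio of -0.5 or higher in all 4 mixture groups, 26 had a lowest value between -1 and -0.5, and 42 fell below -1 in at least 1 of them. All 4 mixture ratios were at or above 0 in 9 genes and below -1 in 22. Pure lactose alone therefore describes about the first 32 and not the whole set. The genes that held their level on the mixtures had median log2 fold changes of -1.10 at 24 h and -1.58 at 48 h on L100. The 26 in between had medians of -1.53 and then -2.30, whereas the 42 lowered on mixtures had -3.00 and then -3.81. The rule in part fixes this order, since each gene had to stand lower on lactose than on the mixtures by the lowest score kept or more.

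**Figure D2:**
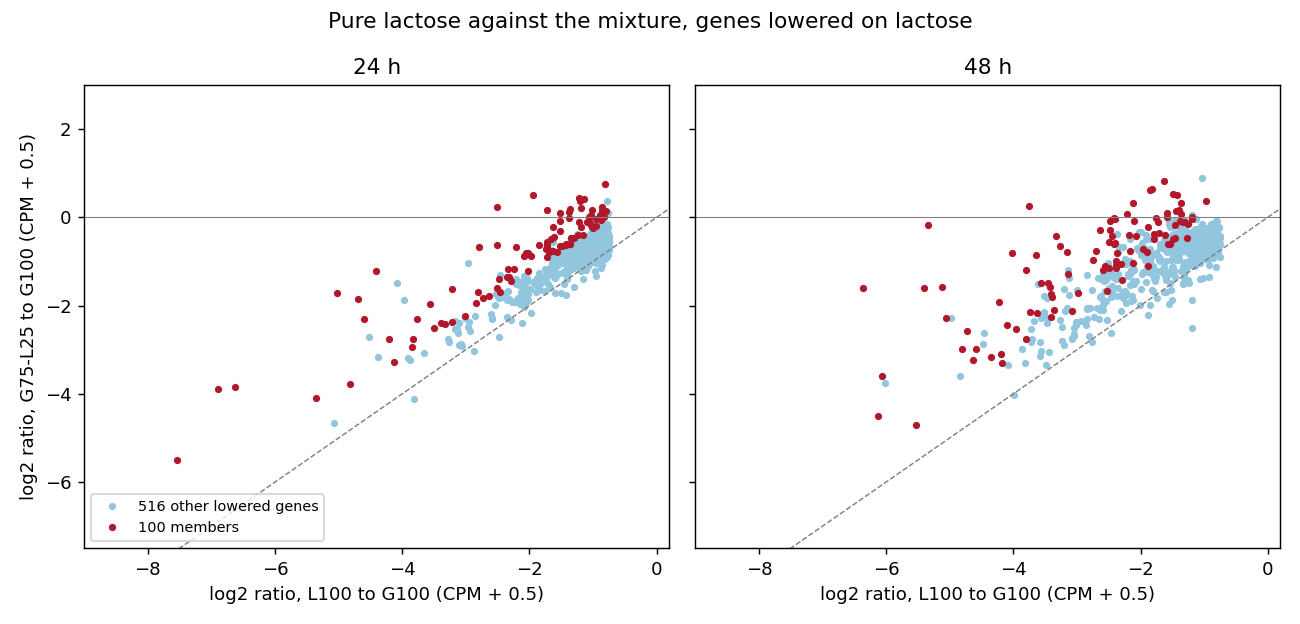
Log2 ratio to G100 on L100 (horizontal axis) and on G75-L25 (vertical axis), both with 0.5 CPM added, at 24 h (left) and 48 h (right), for the 100 genes in red and the 516 other lowered genes in blue, with equal values on the dashed line. The red points lie above the line by construction and reach down to the lower left, where both feeds are far below glucose.

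At the edge of the set, ID 74278 and ID 104911 (ranks 99 and 100) scored 0.761 and 0.752. Just outside it, ID 42752, listed as a trypsin, and ID 121082 scored 0.747 and 0.739. The cut therefore falls within a continuous run of scores.

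Proteins of the cell wall and the cell surface covered a wide range of differences. The keyword list for cell wall proteins and hydrophobins holds 9 tested genes, of which 5 are in the set, with log2 fold changes on L100 against G100 from -4.82 to -0.90 at 24 h and from -6.38 to -1.65 at 48 h. ID 121818, listed as Ncw-2, a cell wall protein without a membrane anchor, had 191 to 252.6 CPM on G100 at 24 h (median 204) and 32.4 to 48.3 CPM on L100 (median 35.7). At 48 h it had 86.3 to 227 CPM on G100 (median 210) and 11.6, 10.2, 23.0, 9.74 and 14.6 CPM on L100. The feeds did not overlap at either time. On G75-L25 it stood at 230, 240, 294 and 239 CPM at 24 h and 214, 250.97, 267.6 and 185 CPM at 48 h, and on G90-L10 at 292 and 266.96 CPM, then 308 and 117 CPM. Every mixture library of Ncw-2 was within or above the glucose range of its time, 2015-430 and 2015-431 included.

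ID 121251, another cell wall protein, had 152 to 388 CPM on G100 at 24 h (median 297) and 42.9 to 126 CPM on L100 (median 67.4), while at 48 h it had 206 to 555 CPM on G100 (median 369) and 3.62, 10.5, 25.2, 1.87 and 3.68 CPM on L100. On G75-L25 its values were 375, 457, 692 and 110 CPM at 24 h and 402, 436, 517 and 12.4 CPM at 48 h. Here G75-L25 was within or above the glucose range in all but 2015-430 and 2015-431, whose values were in the range of L100 at their time. ID 74282, listed as QID74, a cell wall protein, had 510 to 2686 CPM on G100 at 24 h (median 1421) against 24.7 to 92.9 CPM on L100 (median 48.0), and 83.5, 139, 121 and 94.1 CPM on G75-L25. At 48 h it reached 571, 616 and 573 CPM on G75-L25, with 40.4 CPM in 2015-431, against 637 to 1737 CPM on G100 and 4.72 to 41.4 CPM on L100. On G75-L25 it was thus close to lactose at 24 h. At 48 h all libraries of that feed lay below the lowest glucose library, 3 of 4 of them well above lactose. The change with time on that feed did not pass the test (log2 change 2.05 ± 0.60 SE, adjusted p = 0.0874).

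The serine- and threonine-rich mannoprotein ID 120823 followed the other course. It had 453 to 876 CPM on G100 at 24 h (median 718), 364, 302, 328 and 80.5 CPM on G75-L25, 308 and 317 CPM on G90-L10, and 86.0 to 191 CPM on L100 (median 129). At 48 h it had 845 to 1248 CPM on G100 and 22.4, 94.4, 286, 26.7 and 28.8 CPM on L100. Every mixture library was below every glucose library at 24 h, and 2014_275 gave the highest L100 value at 48 h. ID 123659, the remaining cell wall protein of the set, was lowered least, with medians of 69.3 CPM on G100 and 32.8 CPM on L100 at 24 h, where the libraries overlapped. ID 23115, the expansin-like EEL2, whose family loosens cell walls, had medians of 1198 and 387 CPM on G100 and L100 at 24 h and 1083 and 233 CPM at 48 h, with no overlap. ID 119975, listed as the clock-controlled protein CCG6, went from 2121 to 2657 CPM on G100 to 543 to 823 CPM on L100 at 24 h and lay between them on both mixtures, at 1100 to 1934 CPM.

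**Figure D3:**
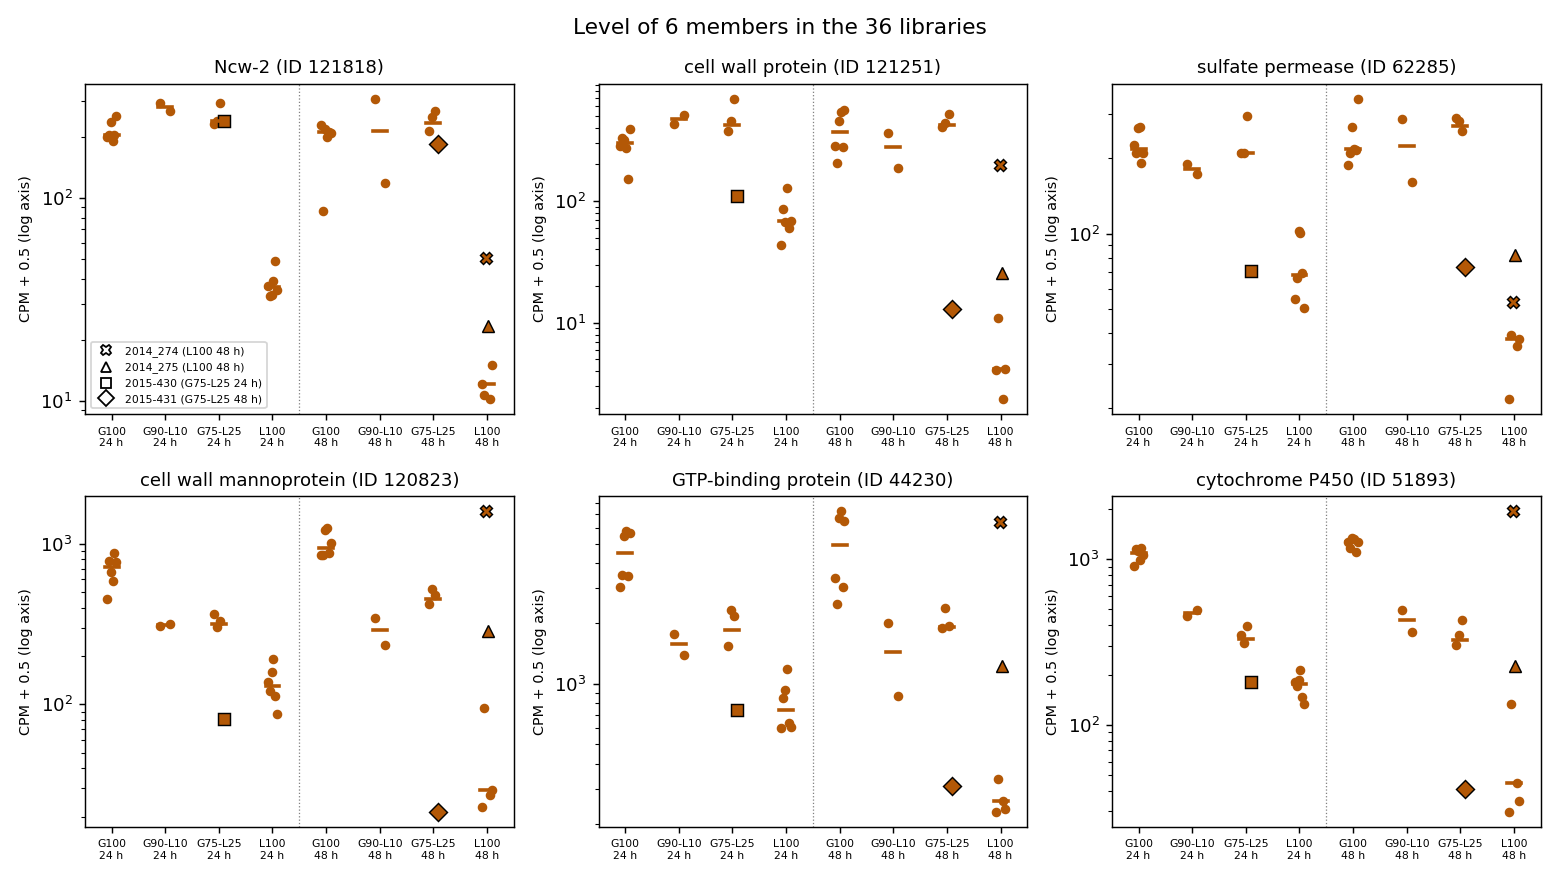
CPM + 0.5 (vertical log axis) of 6 genes in the 36 libraries (points) by feed and time (horizontal axis), with bars at group medians that leave out 2014_274 and larger symbols for 4 named libraries. In the upper row the mixtures lie near glucose, as for Ncw-2 at 230 to 294 CPM on G75-L25 at 24 h, and in the lower row they lie between the pure feeds while 2014_274 lies at or above the middle of glucose, as for the P450 ID 51893 at 1947 CPM.

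Glycoside hydrolases, the enzymes that cut polysaccharides, stood higher on lactose as a list. The 66 tested had a median log2 fold change of 2.31 on L100 against G100 at 24 h and 2.19 at 48 h, and 5 of them are in the set. ID 54198 had 344 to 499 CPM on G100 at 24 h and 98.0 to 177 CPM on L100, and at 48 h 425 to 550 CPM against 82.7, 69.2, 137, 82.5 and 90.8 CPM. On G75-L25 it had 334, 427, 512 and 616 CPM at 24 h and 404, 463, 505 and 607 CPM at 48 h, with 2015-430 and 2015-431 the highest. All mixture libraries stood above all L100 libraries of their time. ID 82235, of family 31, had medians of 555 CPM on G100 and 205 CPM on L100 at 24 h and 577 and 88.5 CPM at 48 h, again without overlap. ID 50215, of family 16, whose members act on beta-glucans, had means of 230 and 74.7 CPM at 24 h and 270 and 48.9 CPM at 48 h. ID 76065, of auxiliary activity family 11, whose members cleave chitin by oxidation, had medians of 212 and 39.6 CPM at 24 h and 197 and 13.3 CPM at 48 h.

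The xylanase XYN2 (ID 123818) is the only gene of the xylanase keyword list, which holds 7 tested genes, in the set. That list also holds the regulator XYR1. On G100 XYN2 had 12.2 to 111 CPM at 24 h (median 65.4) and 16.7 to 150 CPM at 48 h (median 71.6). On L100 it had 7.0 to 46.1 CPM at 24 h (median 16.0) and 2.85, 9.74, 16.4, 2.40 and 4.76 CPM at 48 h. The pure feeds overlapped at 24 h, and at 48 h they were separated by less than 1 CPM. On G75-L25 XYN2 had 82.1, 54.2 and 93.4 CPM at 24 h and 82.7, 45.5 and 52.7 CPM at 48 h, but 2.95 CPM in 2015-430 and 5.76 CPM in 2015-431. The median log2 fold change of the 7 listed genes was 4.37 on L100 at 24 h, and that of XYN2 was -1.49 ± 0.70 (SE). From 24 h to 48 h on G100, 6 of the 7 rose (9.83% of all genes did), and XYN2 had a log2 change of 0.25 ± 0.68 (adjusted p = 0.843).

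The proteases and transporters of the set, which break down and take up nutrients, mostly lay between the pure feeds on the mixtures. The protease list holds 10 tested genes, of which 3 are in the set. Its median log2 fold change on L100 against G100 was 0.62 at 24 h and -0.56 at 48 h. The keywords missed genes of the set listed by enzyme name, such as the pepsins ID 121306 and ID 119876 and the scytalidopepsin ID 69555. ID 124051, a serine peptidase with the highest score of the set, had 33.9 to 183 CPM on G100 at 24 h (median 76.2) and 1.64 to 6.09 CPM on L100 (median 3.66). At 48 h it had 55.6 to 139 CPM on G100 (median 110) against 1.49, 2.85, 2.78, 1.20 and 1.02 CPM on L100, without overlap. G90-L10 gave 140 and 53.4 CPM at 24 h and 76.8 and 26.4 CPM at 48 h, and G75-L25 gave 42.1, 47.2 and 56.1 CPM at 24 h with 3.45 CPM in 2015-430. Its mixtures thus reached glucose in G90-L10 and the lactose range in 2015-430. The carboxypeptidases ID 22210 and ID 22459, which remove residues from the end of a protein, had medians of 60.1 and 26.3 CPM on G100 at 24 h and of 3.69 and 3.02 CPM on L100. ID 121306, listed as a pepsin and so an acid protease, had medians of 61.8 and 7.72 CPM.

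Transporters supplied 10 of the 59 tested genes of their list, and 8 of the 10 were below a log2 ratio of -1 on at least 1 mixture. ID 80026, of the major facilitator superfamily (MFS) of membrane transporters, had 260 to 378 CPM on G100 at 24 h, 139 and 68.5 CPM on G90-L10, 74.0, 55.5, 46.6 and 16.9 CPM on G75-L25, and 11.2 to 26.2 CPM on L100. Its group medians stood in the order of the glucose share of the feed, with the mixtures overlapping each other. ID 46794, listed as an MFS peptide transporter, had medians of 471 CPM on G100 and 19.8 CPM on L100 at 24 h, with 137, 98.8, 158 and 11.6 CPM on G75-L25. ID 66819, listed as an amino acid transporter, is the only member of that list of 6 tested genes and had medians of 8.83 and 1.61 CPM. The exceptions were ID 58561, listed as a polyamine transporter, with a lowest mixture ratio of -0.71, and the sulfate permease ID 62285, with one of -0.33. The permease had 191 to 266.7 CPM on G100 at 24 h, 209, 211, 295 and 70.2 CPM on G75-L25 and 49.8 to 101.9 CPM on L100, so that G75-L25 was within or above glucose apart from 2015-430.

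In secondary metabolism and related oxidation, the set holds 2 of 14 tested cytochrome P450 genes, which encode monooxygenases, and 1 of 5 polyketide or nonribosomal peptide synthases. The P450 ID 51893 had 906 to 1175 CPM on G100 at 24 h and 134 to 213 CPM on L100, and at 48 h 1100 to 1352 CPM against 29.4, 132, 225, 43.97 and 34.2 CPM. Its mixtures lay at 311 to 495 CPM at 24 h, between the pure feeds, apart from 180 CPM in 2015-430. ID 4999, the other P450, had medians of 86.1 and 9.17 CPM on G100 and L100 at 24 h. ID 23171, listed as a peptaibol synthase, which assembles a membrane-active peptide without ribosomes, had 83.1 to 213 CPM on G100 at 24 h and 5.87 to 23.2 CPM on L100. ID 69652, listed as a flavin-dependent halogenase with a methyltransferase part, had 150 to 857 CPM on G100 at 24 h and 7.82 to 15.6 CPM on L100, a wide spread on glucose without overlap.

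Among signalling genes, 3 of 13 tested G protein-coupled receptors (GPCRs) are in the set. The receptor HPR1 (ID 64018), the Ste3-like receptor for a mating pheromone, had 21.3 to 36.5 CPM on G100 at 24 h (median 24.4) and 4.26 to 8.04 CPM on L100 (median 6.24), and at 48 h 15.2 to 45.9 CPM against 1.37, 2.54, 6.18, 2.25 and 1.81 CPM. The feeds did not overlap. ID 45573, of the PTH11 type, a class named after a receptor of the rice blast fungus, had 118, 114, 124 and 29.8 CPM on G75-L25 at 24 h against 79.6 to 135 CPM on G100. ID 59778, a further receptor, had medians of 53.8 and 17.7 CPM on G100 and L100 at 24 h. The GTP-binding protein ID 44230 had 3035 to 5785 CPM on G100 at 24 h (median 4473) and 601 to 1185 CPM on L100 (median 743). At 48 h it had 2502 to 7249 CPM on G100 and 230, 335, 1228, 259.1 and 236 CPM on L100, where 2014_275 stood apart. On G75-L25 it had 1542, 2334, 2170 and 740 CPM at 24 h, below all glucose libraries.

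Further genes belong to no larger group. The DNAse ID 122487 had 1640 to 2722 CPM on G100 at 24 h and 425 to 1046 CPM on L100, and 2460, 2510, 2955 and 996 CPM on G75-L25. At 48 h G75-L25 gave 3843, 3579, 2946 and 1284 CPM against 1480 to 2307 CPM on G100, so that 3 of 4 libraries exceeded every glucose library. ID 121556, listed as a glyoxalase, a class that detoxifies reactive aldehydes, had 10.7 to 478 CPM on G100 at 24 h (median 198) and 1.31 to 1.82 CPM on L100. ID 111357, an FAD-dependent oxidoreductase, had medians of 83.7 and 13.8 CPM, and ID 123207, listed as ribosomal protein L29, had 167 and 32.6 CPM. It is the only tested gene whose listed function names a ribosomal protein.

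Of the 47 genes without a named function, 23 held their level on the mixtures, 15 were in between and 9 fell below -1, against 9, 11 and 33 of the 53 with one. The list of functions holds genes that the study called by their fold changes, so these counts are not independent of the levels. ID 52206 had the second highest score and a wide spread, with 127 to 3184 CPM on G100 at 24 h, 37.2 to 791 CPM at 48 h, 3.66 to 13.3 CPM on L100 at 24 h and 7.64, 7.29, 5.47, 8.24 and 5.32 CPM at 48 h. ID 123475 had 885 to 2075 CPM on G100 at 24 h and 225 to 535 CPM on L100, and on G90-L10 866 and 1629 CPM, then 1176 and 3238 CPM. ID 47710 had 1364 to 2119 CPM on G100 at 24 h, 621 to 870 CPM on L100 and 2066, 2286, 2834 and 1627 CPM on G75-L25, so that its mixtures were within or above the glucose range. ID 65522 had medians of 40.3 and 8.56 CPM on G100 and L100 at 24 h and 32.5 and 4.57 CPM at 48 h.

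Some of the genes lie side by side. Of the 99 matched to a locus tag of the RefSeq annotation of the related strain QM6a (assembly v2.0), 7 pairs are direct neighbours and 11 pairs have at most 2 genes between them. The 100 lowered genes with the lowest scores gave 3 and 6 such pairs, and 515 other lowered genes gave 51 and 105, so nothing is read from the number. ID 50212, ID 50215 and ID 65522 form a run of 3, with the family 16 hydrolase in the middle. QID74 (ID 74282) adjoins ID 44366, and the peptide transporter ID 46794 adjoins ID 58561, listed as a polyamine transporter. ID 108284 and ID 63217, both of unknown function, are another pair, chosen here after their values were seen, as were ID 44366 and ID 58561.

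The change from 24 h to 48 h within a feed did not itself enter the rule. The rule did use the group means of both times on every feed. The changes with time are therefore a description, and nothing is read from the counts. On L100, 46 of the 100 genes fell from 24 h to 48 h and 1 rose, where 14% of all genes tested fell and 14.7% rose. The median log2 change was -0.59 in the set and -0.01 over all genes, and 91 of the 100 values were negative. Among the 516 other lowered genes, 156 fell (30.2%) with a median of -0.26. On G100, 2 of the 100 rose and 4 fell, where 9.83% and 6.12% of all genes did, with a median of 0.02. With 2014_274 included, 17 fell and 7 rose on L100 and the median was -0.02, and without 2014_275 67 genes were called. Without replicate 1 of L100 at 48 h 32 were.

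**Figure D4:**
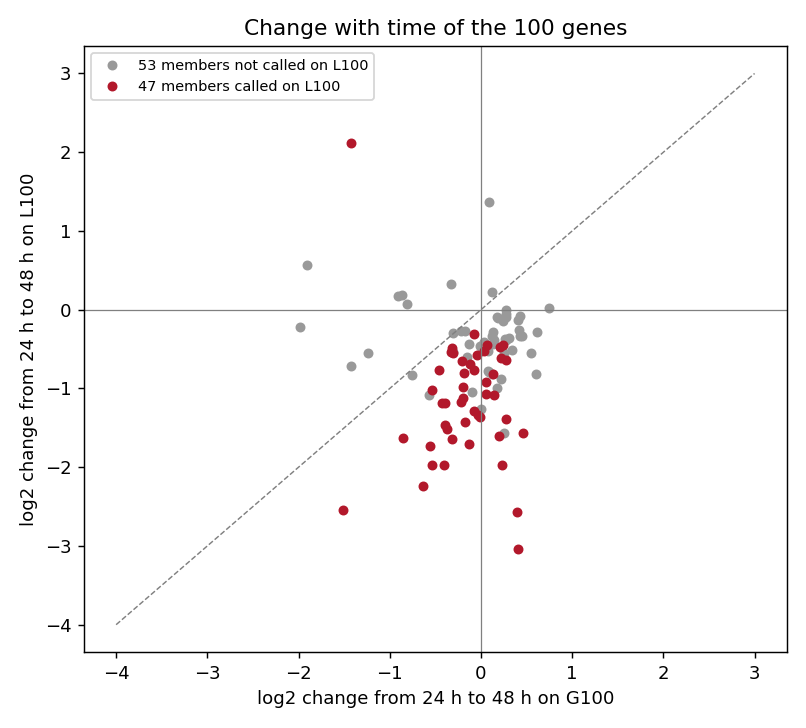
Log2 change from 24 h to 48 h on G100 (horizontal axis) and on L100 (vertical axis) for the 100 genes (points), with equal changes on the dashed line and in red the 47 genes called on L100 at an adjusted p below 0.05. Most points lie below 0 on L100, where 91 of 100 values are negative, and around 0 on G100, where the median is 0.02.

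In the keyword lists as a whole, 5 of 9 tested cell wall genes fell with time on L100 and 1 rose, 4 of 13 receptors fell and 0 rose, and 9 of 66 glycoside hydrolases fell and 8 rose. Of the 5 cell wall genes, 4 fell on L100: ID 121251 by 3.03 ± 0.63 (SE, adjusted p = 6.61e-04), QID74 by 1.70 ± 0.53 (adjusted p = 0.0165), Ncw-2 by 1.42 ± 0.23 (adjusted p = 5.19e-05) and ID 123659 by 1.18 ± 0.39 (adjusted p = 0.0238), all on the log2 scale. The mannoprotein ID 120823 had a log2 change of -0.55 ± 0.54 (adjusted p = 0.471). All 3 receptors fell, ID 45573 by 1.64 ± 0.35 (adjusted p = 8.73e-04), HPR1 by 1.08 ± 0.41 (adjusted p = 0.0459) and ID 59778 by 0.81 ± 0.29 (adjusted p = 0.0334). Of the 5 glycoside hydrolases 4 fell, and the exception was XYN2 at -1.56 ± 0.78 (adjusted p = 0.131). Of the transporters 3 of 10 fell, and neither P450 gene passed the test. These values rest on leaving out 2014_274. Of the 47 calls on L100, 16 were kept with all 36 libraries, 16 were lost and 15 had the opposite sign, 1 of them called. QID74 then had a log2 change of 1.34 (adjusted p = 0.246), ID 120823 1.32, ID 54198 0.15, ID 121251 -0.92 (adjusted p = 0.408), HPR1 (ID 64018) -0.11 and ID 59778 -0.37, while Ncw-2 (ID 121818), at -0.91, ID 123659, at -1.34, and ID 45573, at -1.61, were still called (adjusted p = 0.0256, 0.0132 and 8.85e-04).

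The smallest adjusted p-values on L100 belonged to ID 107202, of unknown function, and ID 77547, a family 1 glycosyltransferase, whose family transfers sugars onto small molecules. ID 107202 went from 3.50 to 7.17 CPM at 24 h to 1.81, 1.27, 1.68, 0.899 and 1.42 CPM at 48 h, a log2 change of -1.98 ± 0.175 (adjusted p = 6.25e-09). ID 77547 went from 8.22 to 14.9 CPM to 2.41, 1.27, 2.91, 1.57 and 2.43 CPM, a log2 change of -2.54 ± 0.229 (adjusted p = 7.12e-09). Neither overlapped between the times. ID 77547 also fell on G100 by 1.52 ± 0.186, on G75-L25 by 2.04 ± 0.236 and on G90-L10 by 2.18 ± 0.331 on the log2 scale, so its fall with time was found on every feed. ID 23367, next by adjusted p, fell by 1.18 ± 0.174 (adjusted p = 1.81e-05), but with 2014_274 included its log2 change was -0.12 (adjusted p = 0.849).

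On the mixtures few changes with time were called. On G75-L25, 4 genes fell (0.732% of all genes did) and 0 rose (0.576%). They were ID 77547, ID 23367, ID 107202 and the halogenase ID 69652. The last went from 66.8, 81.2, 79.2 and 242 CPM at 24 h to 14.4, 20.6, 17.5 and 19.6 CPM at 48 h, a log2 change of -2.70 ± 0.64 (adjusted p = 0.0265). On G90-L10, 2 fell (0.144%), ID 77547 and ID 69652, and 0 rose (0.156%). The halogenase had 598 and 76.4 CPM there at 24 h and 29.0 and 8.46 CPM at 48 h (adjusted p = 0.0479), and its call was lost in 31 of 43 other settings, with log2 changes from -5.32 to -2.02. On G100, ID 50212 and ID 73523 rose, by log2 changes of 0.45 ± 0.138 and 0.43 ± 0.130, and ID 22210, ID 74278, ID 107202 and ID 77547 fell.

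Whether the difference between L100 and G100 itself changed with time is given by an interaction, the log2 ratio at 48 h less that at 24 h. The rule put a limit on both ratios, so the values are a description. The interaction was called as lower for 8 of the 100 genes, where 1.37% of all genes were, and as higher for 1, where 1.49% were, and nothing is read from these counts. The median interaction was -0.68 in the set, -0.23 among the other lowered genes and -0.01 over all genes. The lower ones were ID 107202 (-1.57 ± 0.222 SE), ID 121251 (-3.44 ± 0.808), Ncw-2 (-1.25 ± 0.305) and the family 31 hydrolase ID 82235 (-0.97 ± 0.239). The neighbours ID 50212 and ID 50215 were among them, at -0.79 ± 0.201 and -0.84 ± 0.214, as were ID 77547 and ID 66935, listed as a phosphatidylserine decarboxylase, a phospholipid enzyme named after its value was seen. The higher one was the glyoxalase ID 121556, which went on L100 from 1.31 to 1.82 CPM at 24 h to 3.14, 5.07, 9.67, 8.76 and 6.68 CPM at 48 h (interaction 3.54 ± 0.957). With all 36 libraries 0 interactions were called by edgeR among the 100 genes, with 25 at an unadjusted p below 0.05, and without 2014_275 33 were called. The shares of all genes in these settings are not given, so nothing is read from these counts either.

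The mixtures were also set against each other. At 24 h, 0 of the 100 genes differed between G75-L25 and G90-L10 by edgeR, where 1.28% of all genes were higher and 0.672% lower on G75-L25. Of the 100, 15 had an unadjusted p below 0.05, and DESeq2 called 1, but the shares of all genes are not given for these counts and nothing is read from them. The median log2 fold change was -0.24 and 73 of the values were negative. At 48 h, 1 gene was lower on G75-L25 (0.923% of all genes) and 0 were higher (1.19%). This was ID 64308, of unknown function, with 51.3, 55.0, 52.7 and 37.1 CPM on G75-L25 and 70.1 and 99.5 CPM on G90-L10 (log2 fold change -0.79 ± 0.176, adjusted p = 0.0342), so that the feeds did not overlap. The call was lost in 5 of 43 other settings.

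Library 2014_274 took no part in choosing the genes. It shows how they stand in a culture whose cellulases lay, despite its label, at the low end of the G100 range at 48 h or below it. The endoglucanase EGL1, for example, had 789 CPM there against 1013 to 3425 CPM on G100 at 48 h. Of the 100 genes, 78 were above every other L100 library at 48 h, as were 93.8% of the other lowered genes and 41.2% of all expressed genes. Compared with G100 at 48 h, 26 lay within its range, 23 above and the rest below. The shares of all genes outside that range are not given, so nothing is read from these counts. The median log2 ratio was -0.64 against 0.08 for the other lowered genes.

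The genes split in 2014_274 along their level on the mixtures, a grouping made after these values were known. Of the 32 genes that held their level on the mixtures, 24 were below every G100 library in 2014_274 and 1 was above, with a median log2 ratio of -0.99. Of the 42 lowered on a mixture, 12 were below every G100 library and 21 above, with a median of 0.46. The counts again stand without the shares of all genes, so only the medians are compared. The same order held among the other lowered genes, with medians of -0.26 for 41 genes and 0.72 for 215. Ncw-2 had 50.4 CPM in 2014_274, the sulfate permease 52.7 CPM and the DNAse 211 CPM, all below the lowest glucose library at 48 h, and the DNAse below every lactose library too. The P450 ID 51893 had 1947 CPM, the mannoprotein ID 120823 had 1591 CPM, ID 80026 had 779 CPM and the peptaibol synthase ID 23171 had 499 CPM, all above the highest glucose library. The GTP-binding protein ID 44230, at 6413 CPM, was within the glucose range. Both P450 genes and 5 of 10 transporters were above every glucose library, and none of the 3 receptors or the 5 glycoside hydrolases was. Nothing is read from these counts either. Exceptions ran both ways: in the first group ID 23367 had 231 CPM, above glucose, and in the second the glyoxalase ID 121556 had 2.61 CPM and the serine peptidase ID 124051 8.15 CPM, far below it.

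**Figure D5:**
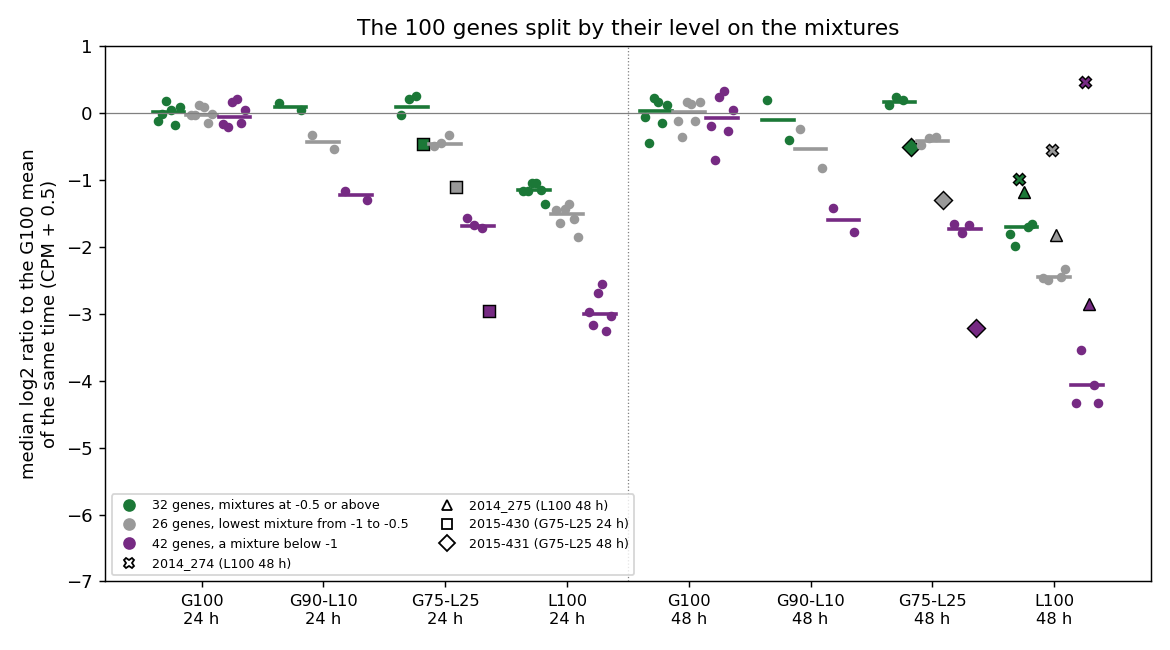
Median log2 ratio to the G100 mean of the same time (vertical axis, CPM + 0.5) in each of the 36 libraries (points), by feed and time (horizontal axis), for the 100 genes split by their lowest log2 ratio on the mixtures, with bars at group medians that leave out 2014_274. In 2014_274 the order of the 3 groups is turned round, from -0.99 for the 32 genes that held their level on the mixtures to 0.46 for the 42 that did not.

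In 2015-430 and 2015-431 the same 42 genes had medians of -2.96 and -3.21, against -1.71 to -1.57 and -1.80 to -1.66 in the other libraries of their groups, and the 32 genes had -0.46 and -0.50 against -0.03 to 0.25 and 0.12 to 0.23. In 2014_275 the 3 groups lay at -1.18, -1.83 and -2.86, each above the other 4 libraries of L100 at 48 h. All 3 libraries entered the choice of the genes, and their part in the split was not tested.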

How the data were processed

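The authors sequenced stranded mRNA libraries and deposited, for each of 36 libraries, whole-number counts of reads per gene without normalization. The submitters' processing notes name bcl2fastq 2.17.1.14, Bowtie and HTSeq 0.5.3, and the methods describe the Eoulsan pipeline with removal of reads under 40 bases or of a mean quality under 30. Reads shared by similar genes were handled by the authors' counting.

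The edgeR package 4.0.16 was run under R 4.3.3. Levels are CPM with TMM factors. The 35 libraries left without 2014_274 were fitted in 1 quasi-likelihood model with a mean per group, over the 8338 genes that filterByExpr kept at a minimum of 10 counts, with Benjamini-Hochberg adjustment over all of them. Changes with time, their interaction with lactose and the difference between the mixtures were called at an adjusted p below 0.05. The methods name DESeq 1.8.3, which was not run here. DESeq2 1.42.0 was an alternative, with RLE or library-size scaling, other filters and pseudocounts, 36 or 33 libraries, only the groups compared, a fold threshold, and each library left out in turn. On simulated counts with 100 genes changed by 1 and 100 by 2 on the log2 scale, edgeR recovered 95 and 100 for the time change on L100, with 12 false calls. It recovered 81 and 97 for the time change on G90-L10 and 89 and 98 for the interaction. The changed genes averaged over 5 CPM and had the same mean in all other groups. Recovery for genes that stand lower on L100, as many here do, was therefore not measured.

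Depth was 9955798 to 49808747 counts per library, and p-values measure only the spread between these libraries. The genes and lists were chosen with earlier results of these data known. Genes named are the 12 highest scores, those the paper names, up to 3 per keyword list, up to 3 per test and direction with the smallest adjusted p, the ranks at the edge and the 5 highest mean CPM on G100. Others are marked or are given with a neighbour, an interaction call or a listed function after their values were seen. IDs matched a RefSeq locus tag for 9072 of 9129 genes, which served for neighbours only. Figures were drawn with matplotlib 3.10.9 in Python 3.11.15.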

Additional observations from a re-analysis of the deposited data

Results flagged for a closer look

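In groups of 4 to 10 libraries, the medians of 2 libraries lay beyond Dixon's 95% limit, which chance exceeds in about 1 of 20 groups. The median log2 ratio of the 100 genes to G100 was -1.87 in 2014_275 (L100 at 48 h), above the other 4 libraries, and -1.64 in 2015-431 (G75-L25 at 48 h), below the other 3.

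The log2 ratio of L100 to G100 differed between 48 h and 24 h by the interaction for 4 named genes, all chosen through these same ratios, by 3.54 on the log2 scale for ID 121556, -1.57 for ID 107202, -3.44 for ID 121251 and -1.25 for ID 121818. The calls of ID 107202 and ID 121251 were lost in 1 of 43 other settings each, that of ID 121818 in 2 and that of ID 121556 in 14.

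In library 2014_274, left out of the rule and of the tests, 23 of the 100 genes stood above every G100 library at 48 h. The share of all genes that did so is not given, so nothing is read from this count.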

How the results depend on the processing

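None of the medians reversed its direction. Of 73 log2 changes of single genes compared across 43 settings, 18 did so, 17 of them with all 36 libraries. These were the changes with time on L100 of ID 111357 (1.29), ID 119975 (0.22), ID 120837 (1.86), ID 121306 (0.39), ID 123978 (1.93), ID 22210 (0.12), ID 22459 (1.63), ID 44362 (3.00), ID 54198 (0.15), ID 66819 (1.45), ID 66935 (1.64), ID 67084 (0.25), ID 67562 (0.54), ID 74282 (1.34), ID 77283 (0.53) and ID 120823 (1.32), and the interaction of ID 66935 (1.18). XYN2 (ID 123818) on G100, not called, ranged from -0.0703 (without replicate 4 of G100 at 48 h) to 0.504 with 1 library left out. Counts of genes called depended on the libraries. With all 36 libraries the change with time was called for 24 genes on L100, 1 on G75-L25 and 1 on G90-L10, the interaction for 0, and the mixtures differed at 48 h for 0, while the median on L100 at 48 h was -1.65. With 33 libraries (also without 2015-430 and 2015-431) the counts were 16 on G100, 30 for the interaction, 1 between the mixtures at 24 h and 0 at 48 h. DESeq2 gave 4 on G90-L10, 17 interactions, 1 at 24 h and 3 at 48 h. Library size alone gave 1 on G90-L10, 16 interactions, 8 at 24 h and 7 at 48 h, with medians of -2.24 and -3.07 on L100, and it moved the median time change of all genes on L100 to -0.19. A model of only the groups compared gave 23 on G100, 2 on G75-L25, 0 on G90-L10, 23 interactions and 0 at 48 h. At least 10 counts in every library gave 2 at 48 h. Calls restricted to absolute log2 changes over 1 numbered 1 on G100, 28 on L100, 2 on G75-L25 and 0 at 48 h. The causes were not tested.

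Leaving out 1 library at a time gave 3 to 10 genes on G100, 32 to 67 on L100, 2 to 5 on G75-L25, 0 to 3 on G90-L10, 3 to 33 interactions, 0 to 2 and 0 to 4 between the mixtures, and 87 to 100 shared genes. The median on G90-L10 at 48 h ranged from -0.94 to -0.37. The lowest and highest counts on L100 came without replicates 1 and 4 of L100 at 48 h (2014_272 and 2014_275), and for the interaction without replicates 6 (2014_277) and 4. The interaction also gave 18 without 2015-431. No paired analysis was possible because the labels number the libraries serially and do not say which of them share a culture. The methods split cultures into flasks of several feeds, and the tests treat all libraries as independent. With 2 libraries a time, G90-L10 limits every comparison it enters.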
